A study of Mus musculus with 4 samples.

Results

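The genes described here were 35 interferon-stimulated genes, taken by symbol, and measured in the septal nasal mucosa of young adult and aged mice. A gene was a member if a non-control probe of the array carried a transcript accession of that gene. By this rule 33 of the 35 genes were matched, through 48 of the 56605 probes, and they were 33 of the 45604 genes tested. Mx1 and Mx2, the dynamin-like GTPases of the list, had no probe by this match and were not analysed here.

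RNA came from the snap-frozen septal mucosa of male C57BL/6J mice, and it was hybridized to 4 Agilent one-color arrays, 2 for young adult mice (8 weeks old) and 2 for aged mice (16 months old). Each array held a pool of 5 mice. The methods name no treatment for either age. Whether the 2 pools of an age had mice in common is not given in the sources used here. However, the paper's methods set aside too few animals of each age for RNA work to fill 2 pools of 5 without overlap. If the arrays drew on those animals alone, the pools shared mice and were not independent replicates. The P values thus measured only the spread between these pools, which may not reflect the spread between mice. The sample labels also name silica aspiration and CD45-negative lung cells, which goes against the tissue, title and paper and was disregarded. As a check of the tissue, all 8 markers of mature olfactory receptor neurons (ORNs) and all 4 markers of sustentacular cells were well above background on all 4 arrays.

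Interferons are secreted proteins by which cells answer viral nucleic acids. Type I and type III interferons bind their receptors, activate the kinases JAK1 and TYK2, and send a complex that includes STAT2 and IRF9 to the nucleus, where it binds interferon-stimulated response elements and switches on antiviral genes. These genes are also expressed at a lower, tonic level without infection. The nasal mucosa, which is open to inhaled viruses, is a tissue in which such genes are studied.

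Of the 33 interferon-stimulated genes measured, 11 were called lower in aged mucosa, 0 were called higher and 22 were not called. Calls required P below 0.05 together with a Benjamini-Hochberg false discovery rate (FDR) below 0.25 over all genes tested, which are the thresholds of the methods. Of all 45604 genes, 3.98% were called by limma, 2.33% as lower and 1.65% as higher, against 33.3% of the members lower. The genes called lower were Irf7, Oas1a, Gbp3, Oas3, Rtp4, Ifi44, Lgals3bp, Oasl2, Isg15, Ifit3 and Bst2. Leaving aside Oas3, which was too dim for a fold, the levels of the other 10 fell by 29.3 to 43.1%.

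On the log2 scale, the change from young adult to aged (the difference of the age means of log2 normalized intensity) had a median of -0.29 over the 33 members and of 0.0093 over all genes. It was below 0 for 28 of the 33 members, and for 48.5% of all genes. The 2 aged arrays were both under the lower young adult array for 27 members (81.8%), as they were for 21.8% of all genes. They were both over the higher young adult array for 1 member, Ifit1, and for 24.2% of all genes. The arrays of the 2 ages overlapped for Cmpk2, Parp9, Parp14, Dtx3l and Trim30a. Without the FDR condition, 13 members were lower and 0 higher at P below 0.05 by limma, against 7.08% and 6.05% of all genes. Of the 33 members, 32 had a probe well above the local background on all 4 arrays, and 10 of these 32 were called lower (31.2%). Of the 24551 genes that were well above background on all arrays and had a mean level in the range of these members, 3.14% were called lower. The remaining member, Oas3, was not well above background on any array.

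**Figure D1:**
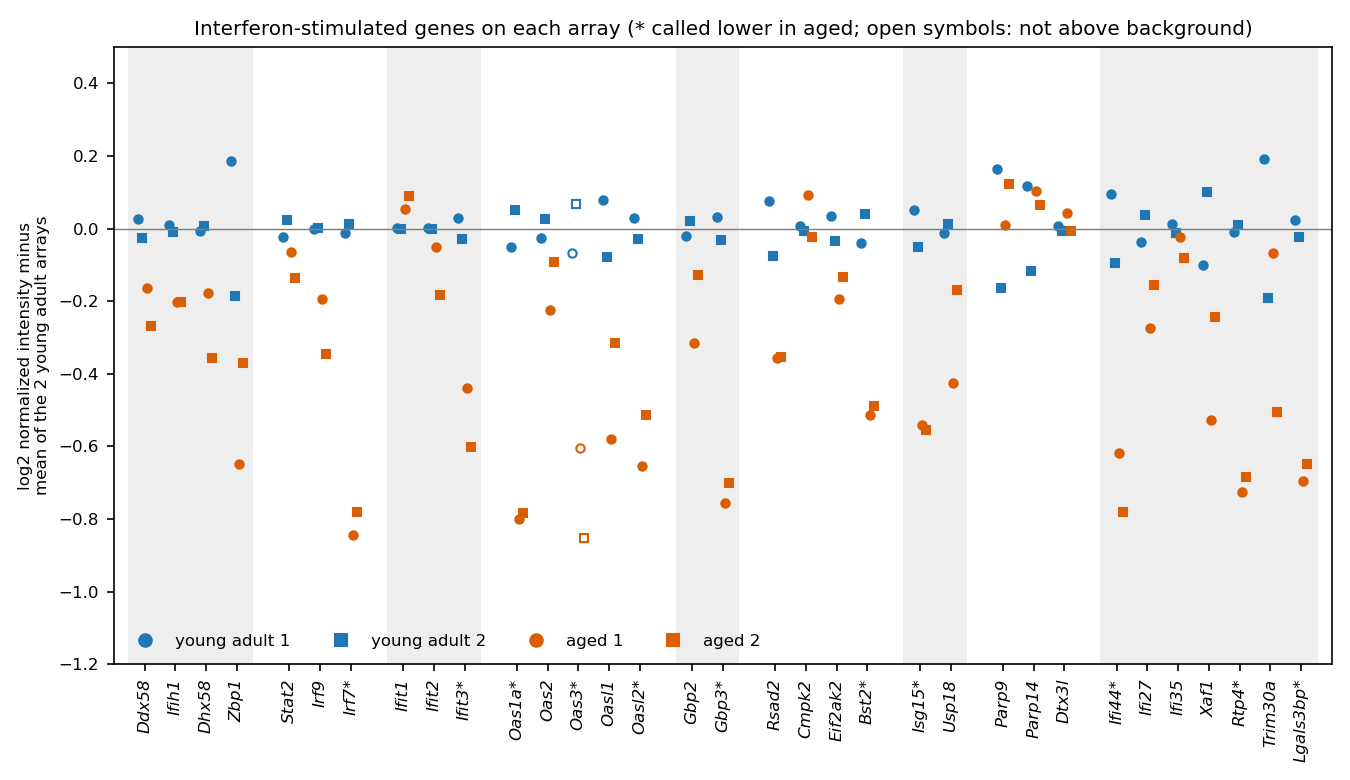
Log2 normalized intensity of each of the 33 measured genes on each array, minus the mean of the 2 young adult arrays, with genes ordered by role and shaded by role group. Blue symbols are young adult pools, orange symbols are aged pools, open symbols are arrays of a gene that was not well above background on any array (Oas3), and a star marks the 11 genes called lower; for these 11 both aged symbols lie below both blue symbols.

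The calls were made at a lenient FDR and with few arrays. The smallest FDR of any gene was 0.0945 by limma, and 0 members and 0 genes passed an FDR of 0.05. When young adult array 1, young adult array 2, aged array 1 or aged array 2 was left out in turn, 0 genes were called, and 10, 11, 11 and 13 of the 33 members were lower at unadjusted P below 0.05, against 6.44%, 6.29%, 3.70% and 5.80% of all genes in the same fits. Young adult array 1 and aged array 1 were on the same slide, and within that slide the 10 called genes above background differed by -0.83 to -0.47 on the log2 scale. The difference between the other 2 arrays was -0.83 to -0.49. These 2 arrays were on different slides, so age and slide cannot be told apart between them. The 10 genes were called on these same arrays, so their signs within each pair are not separate support. Over all 33 members the median difference was -0.29 within the shared slide, with 30 of 33 below 0, and -0.24 between the other 2 arrays. Within the shared slide the median over all genes was -0.0063. The number of calls moved with the treatment of dim signal. With an offset of 50 added in the background correction, 15 members were called lower and 0 higher by limma, against 5.43% and 4.62% of all genes. With dim probes left out, Oas3 was not tested and 20 of the 32 other members were called lower and 0 higher, against 12.4% and 12.1% of the 29495 genes that remained. Those 20 held 10 of the 11 genes above, with Ifih1, Dhx58, Zbp1, Irf9, Oas2, Oasl1, Rsad2, Usp18, Ifi27 and Xaf1. This filter kept a probe that was well above background on both arrays of either age, so a probe could be kept through 1 age alone. Zbp1 and Rsad2 each held such a probe, well above background on 3 arrays. The count of 20 thus depends in part on how the filter was set. An exact permutation test of 2 against 2 arrays cannot give a two-sided p below 0.333.

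**Figure D2:**
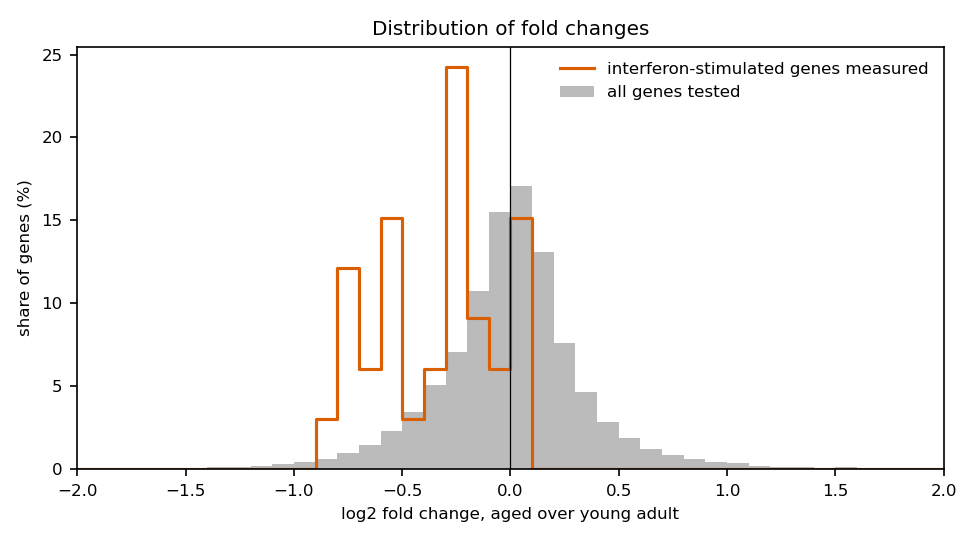
Share of genes (%, vertical axis) in each interval of the log2 fold change, aged over young adult (horizontal axis), for the 33 interferon-stimulated genes measured (orange line) and for all 45604 genes tested (grey bars). The orange line lies mostly to the left of 0, with a median of -0.29 against 0.0093 for all genes, and the highest member is at 0.08.

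Promoter sequences that hold the core of the interferon-stimulated response element are printed for the genes called lower and for some of the genes that were not called. RefSeq windows (assembly GRCm38.p6) from 250 bases before to 50 bases after the transcription start were listed for 25 members. Zbp1, Oas2, Usp18, Dhx58, Parp9, Parp14, Ifi27 and Rtp4 had no window. The core of the response element was searched as GAAA, any 2 bases and GAAA, on both strands and with overlapping matches counted, so that on the other strand it reads TTTC, any 2 bases and TTTC. It was found in 14 of the 25 members and in 3.99% of the 27025 genes with a window. It was found in 6 of the 10 members called lower and in 8 of the 15 that were not called. The core of the gamma-activated sequence, TTCNNNGAA with N for any base, was found in 5 of the 25 members and in 9.55% of all genes. A match describes the letters of a window and is not a measured binding site.

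For genes called lower, the matches (in capitals, with flanking bases in lower case, in the direction of transcription) were as follows. Isg15 has 3 overlapping matches that begin -78, -72 and -66 bases from the start (window chr4:156200769-156201068, minus strand). Bst2 has 2 at -130 and -124 (chr8:71537423-71537722, minus strand), Gbp3 has 2 at -45 and -39 (chr3:142559794-142560093, plus strand), Oas1a has 2 at -20 and -14 (chr5:120907476-120907775, minus strand), Oas3 has 1 at -75 (chr5:120777610-120777909, minus strand) and Ifit3 has 2 at -156 and -122 (chr19:34583279-34583578, plus strand).
Isg15: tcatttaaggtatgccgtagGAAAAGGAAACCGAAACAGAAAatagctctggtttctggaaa
Bst2: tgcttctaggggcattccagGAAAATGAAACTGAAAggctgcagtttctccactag
Gbp3: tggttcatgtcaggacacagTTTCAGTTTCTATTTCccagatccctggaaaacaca
Oas1a: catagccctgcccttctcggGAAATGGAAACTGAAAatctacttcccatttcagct
Oas3: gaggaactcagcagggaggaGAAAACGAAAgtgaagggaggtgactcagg
Ifit3: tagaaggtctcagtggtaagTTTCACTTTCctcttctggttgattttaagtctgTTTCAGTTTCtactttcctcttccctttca

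Among genes that were not called, Ifit1 also has 2 matches, at -104 and -85 (chr19:34640639-34640938, plus strand). Gbp2, the neighbour of Gbp3, has 1 at -59 (chr3:142620413-142620712, plus strand), Rsad2 has 1 at -120 (chr12:26456403-26456702, minus strand) and Stat2 has 1 at -222 (chr10:128270248-128270547, plus strand). Ddx58, Eif2ak2 and Ifih1, also not called, have 1 match each, at 2, 18 and 32 bases from the start. Trim30a has 1 in each of its windows, at -36 and 2. The sequences of Ddx58, Eif2ak2, Ifih1 and Trim30a are not printed.
Ifit1: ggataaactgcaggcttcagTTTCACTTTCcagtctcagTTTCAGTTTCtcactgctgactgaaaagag
Gbp2: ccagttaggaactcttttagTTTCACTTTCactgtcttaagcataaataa
Rsad2: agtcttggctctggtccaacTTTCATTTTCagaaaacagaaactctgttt
Stat2: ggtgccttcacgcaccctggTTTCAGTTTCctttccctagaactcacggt

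The window of Irf7, the member with the largest called difference, holds no match (chr7:141266375-141266674, minus strand), nor do those of Ifi44, Lgals3bp and Oasl2 among the genes called lower. It is printed whole, because the letters searched are absent from it.
Irf7: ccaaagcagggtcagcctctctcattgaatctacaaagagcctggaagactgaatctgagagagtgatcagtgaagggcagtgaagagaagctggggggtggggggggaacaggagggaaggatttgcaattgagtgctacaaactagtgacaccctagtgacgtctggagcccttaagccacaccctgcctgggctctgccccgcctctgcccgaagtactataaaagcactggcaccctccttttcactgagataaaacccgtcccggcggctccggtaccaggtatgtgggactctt

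Sensors of viral nucleic acid came first in the pathway, and 0 of 4 were called. All 4 had both aged arrays below both young adult arrays (beside 21.8% of all genes), with log2 differences of -0.51 to -0.20. Ifih1, which encodes the long double-stranded RNA sensor MDA5, had normalized intensities of 826 and 814 in young adult mice and 712 and 712 in aged mice. The 2 ages did not overlap for Ifih1, and its log2 difference was -0.20 (95% interval -0.42 to 0.02, FDR = 0.408 by limma). Ddx58, the gene of the RNA sensor RIG-I, differed by -0.21 (95% interval -0.47 to 0.04, FDR = 0.436 by limma), and its 4 probes gave -0.37 to -0.11. Dhx58, the gene of LGP2, which modulates the other RNA sensors, differed by -0.27 (95% interval -0.57 to 0.04, FDR = 0.418 by limma). Zbp1, a sensor of Z-form nucleic acid, differed by -0.51 (95% interval -1.09 to 0.07, FDR = 0.419 by limma), and its difference was -0.83 within the shared slide and -0.18 between the other arrays.

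Of the genes that carry the signal to the nucleus, Irf7 fell. IRF7 is the transcription factor that amplifies type I interferon production. Its normalized intensity was 1171 and 1191 in young adult mice and 658 and 687 in aged mice, the latter pair well below the former. The log2 difference was -0.81 (SE 0.078, FDR = 0.183 by limma), the largest of any called member, and its 2 probes gave -0.83 and -0.80. Irf9, the DNA-binding subunit of the complex formed with STAT2, was at 2128 and 2132 in young adult and at 1863 and 1677 in aged mice. The ages did not overlap, but the log2 difference of -0.27 did not pass (95% interval -0.55 to 0.01, FDR = 0.393 by limma). For Stat2, another subunit, it was -0.10 (95% interval -0.34 to 0.14, FDR = 0.657 by limma).

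Of the 3 members of the IFIT family, whose proteins bind viral RNA and block its translation, 1 was called lower (beside 2.33% of all genes). Ifit3 was at 1145 and 1101 in young adult mice and at 829 and 740.1 in aged mice, with no overlap. Ifit3 fell by 0.52 on the log2 scale (SE 0.099), and its FDR of 0.2498 by limma was the closest to the threshold among the members called. Ifit1 was at 1226 and 1225 in young adult mice and at 1273 and 1304 in aged mice, so that both aged arrays were slightly higher. Its log2 difference was 0.07 (95% interval -0.15 to 0.30, FDR = 0.725 by limma). For Ifit2 it was -0.12 (95% interval -0.38 to 0.15, FDR = 0.642 by limma). Ifit3 has a near-identical neighbour, Ifit3b, and an array cannot show how far their probes also bind each other's RNA.

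The OAS family makes the oligoadenylate that activates RNase L, and its OASL relatives act on the sensors and regulators of the same pathway. All 5 members lay lower on both aged arrays (beside 21.8% of all genes), and 3 of 5 were called lower (beside 2.33%). Their median log2 difference was -0.58. One of the calls, Oas3, was not above background and was lost in 6 alternatives, and without it 2 of 4 were called with a median of -0.52. Oas1a had normalized intensities of 3442 and 3696 in young adult mice and of 2050.3 and 2073 in aged mice. The aged arrays differed little from each other, and the log2 difference between ages was -0.79 (SE 0.084, FDR = 0.185 by limma). Oasl2 was at 1815 and 1746 in young adult mice and at 1130.2 and 1246 in aged mice, again without overlap, and fell by 0.58 (SE 0.094, FDR = 0.221 by limma). Oas3 was at 32.7 and 36.0 in young adult mice and at 22.6 and 19.0 in aged mice, but as its probe was not well above background on any array no fold is given (FDR = 0.242 by limma).

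The remaining OAS genes show what the averaging of probes can do. Oasl1 was at 270.2 and 242 in young adult mice and at 171 and 206 in aged mice, a log2 difference of -0.45 with an unadjusted P of 0.041 and an FDR of 0.358 by limma. Oas2 differed by -0.16 as the mean of its 2 probes (95% interval -0.43 to 0.12, FDR = 0.565 by limma). Its bright probe, well above background on all 4 arrays, read 508 and 511 in young adult and 253 and 282 in aged mice. The other probe, well above background on 0 arrays, read 12.4 and 13.3 in young adult and 19.0 and 20.4 in aged mice. Thus the bright probe was lower on both aged arrays (log2 difference -0.93) while the dim probe was higher on both (0.62). Xaf1, an interferon-induced gene linked to apoptosis, had the same structure. Its bright probe read 703 and 670.2 in young adult and 379 and 423 in aged mice (-0.78), and its dim probe, well above background on 1 array, differed by 0.0068. With the most intense probe taken for each gene, both were called lower, Oas2 at an FDR of 0.169 and Xaf1 at an FDR of 0.182 by limma, and all 11 earlier calls were kept, so 13 members were called lower and 0 higher, against 3.09% and 2.2% of all genes. Oas2 and Xaf1 were singled out after their values had been seen.

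**Figure D3:**
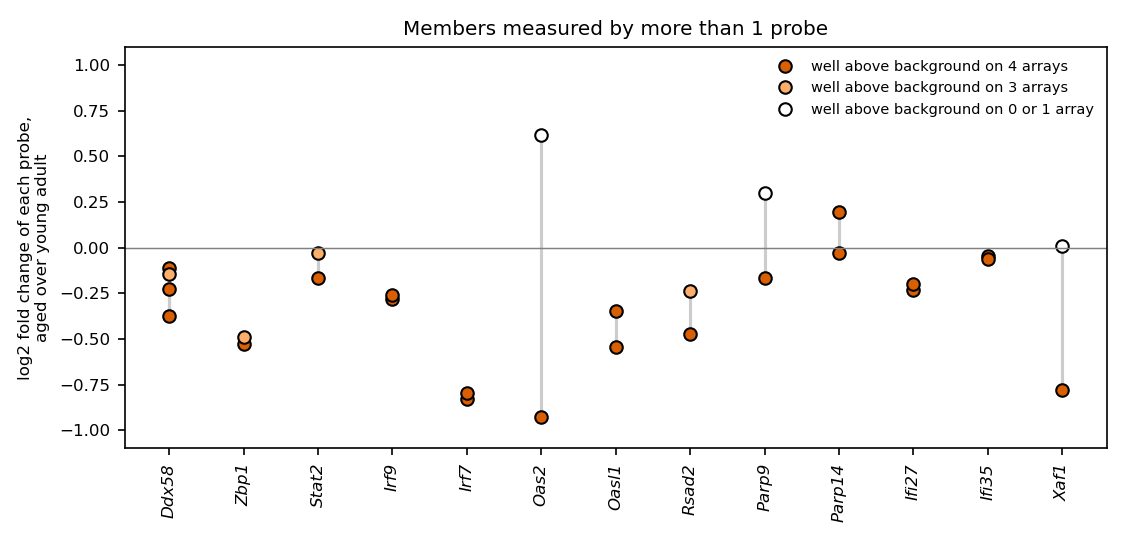
Log2 fold change, aged over young adult (vertical axis), of each probe of the 13 members measured by more than 1 probe, joined by a grey line per gene. Fill shows on how many of the 4 arrays the probe was well above background; the unfilled probes of Oas2 and Parp9, and that of Xaf1, lie above the filled probe of the same gene.

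Of the interferon-induced GTPases, which attack the membranes of intracellular pathogens, Gbp3 fell and Gbp2 was not called. Gbp3 was at 803 and 767 in young adult mice and at 465 and 482 in aged mice, with a wide gap between the ages and a log2 difference of -0.73 (SE 0.080, FDR = 0.188 by limma). Gbp2 was at 798 and 819.9 in young adult mice and at 650.3 and 740.1 in aged mice. The ages did not overlap for Gbp2 either, and the log2 difference was -0.22 (95% interval -0.53 to 0.09, FDR = 0.494 by limma).

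Among 4 other antiviral effectors, Bst2 fell. It encodes tetherin, which holds budding virions to the cell surface, and it was at 2825 and 2985.5 in young adult mice and at 2036 and 2069.9 in aged mice. The aged arrays were the lower pair, by -0.50 on the log2 scale (SE 0.080, FDR = 0.221 by limma). Rsad2, the gene of viperin, which makes a chain-terminating nucleotide, was at 134 and 121 in young adult and at 99.6 and 99.8 in aged mice. It was lower on both aged arrays, with a log2 difference of -0.36 that passed the unadjusted P (0.026) and not the FDR (0.312 by limma). Cmpk2, the neighbour of Rsad2, which encodes a mitochondrial nucleotide kinase, was at 1343 and 1330.0 in young adult and at 1425 and 1315 in aged mice. Its arrays overlapped, with a log2 difference of 0.03 (95% interval -0.22 to 0.29). Eif2ak2, the gene of the RNA-dependent kinase PKR, differed by -0.16 (95% interval -0.41 to 0.08, FDR = 0.513 by limma).

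ISG15 is a ubiquitin-like protein that is attached to other proteins, and USP18 removes it and also restrains the interferon receptor. Isg15 was at 4368 and 4071 in young adult mice and at 2899 and 2869.7 in aged mice. The aged pools were nearly equal and lay below both young adult pools, and Isg15 fell by 0.55 on the log2 scale (SE 0.083, FDR = 0.214 by limma). Usp18 was at 1107 and 1126 in young adult mice and at 831 and 994 in aged mice. It was lower on both aged arrays and not called, with a log2 difference of -0.30 (95% interval -0.67 to 0.07, FDR = 0.450 by limma).

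Parp9, Parp14 and Dtx3l, genes of ADP-ribosyltransferases and of the ubiquitin ligase that pairs with PARP9, formed the group in which the ages overlapped for every gene. Dtx3l was at 1136 and 1126 in young adult mice and at 1166 and 1125 in aged mice, which leaves a log2 difference of 0.02 (95% interval -0.21 to 0.25). Parp14 was at 1095 and 930.2 in young adult and at 1085 and 1055 in aged mice, a log2 difference of 0.08 (95% interval -0.27 to 0.44). Parp9 was at 251 and 200.2 in young adult and at 226 and 244 in aged mice, a difference of 0.07 (95% interval -0.39 to 0.52). The spread between the young adult arrays was wider than the difference between ages in both PARP genes. The sign for Parp9 and Parp14 turned with the choice of probe. The bright probe of Parp9, well above background on all arrays, gave -0.17, and the dim one, well above background on 0 arrays, gave 0.30, while the 2 probes of Parp14 gave -0.03 and 0.20. For Dtx3l the sign turned with the scanner's processed signal (-0.01), and for Cmpk2 with that signal after quantile normalization (-0.0048).

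The last 7 members have roles of their own, and 3 of them were called lower (beside 2.33% of all genes). Rtp4, which encodes an interferon-induced member of the receptor transporter proteins, was at 3358 and 3397 in young adult mice and at 2044 and 2101 in aged mice. Both ages were tight and far apart, and Rtp4 fell by 0.70 on the log2 scale (SE 0.075, FDR = 0.185 by limma). Its relatives Rtp1 and Rtp2, which carry odorant receptors to the surface of mature ORNs, were not called and differed by 0.14 and 0.12. Lgals3bp, the gene of a secreted glycoprotein that binds galectin-3, was at 13084 and 12670 in young adult and at 7950 and 8208.5 in aged mice. The 2 aged pools were lower by similar amounts (-0.67, SE 0.078, FDR = 0.191 by limma). Ifi44, an interferon-induced gene that restrains viral replication, was at 429.9 and 377 in young adult mice and at 262 and 234 in aged mice. It had more spread within each age and no overlap, and fell by 0.70 (SE 0.121, FDR = 0.235 by limma).

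Ifi27, which encodes a small mitochondrial protein, was at 12579 and 13266 in young adult and at 10684 and 11593 in aged mice. The aged arrays were lower without overlap, and the log2 difference was -0.22 (95% interval -0.49 to 0.06, FDR = 0.457 by limma). Trim30a, a TRIM protein gene that restrains inflammatory signalling, had overlapping arrays and the widest interval of the members (-0.29, 95% interval -0.99 to 0.41). Ifi35, which encodes a leucine zipper protein, was the member of this group nearest to 0 at -0.05 (95% interval -0.28 to 0.18), and Xaf1, described above by probe, was at -0.39 as a mean of probes (95% interval -0.84 to 0.07, FDR = 0.433 by limma). Of the 11 called members, Irf7, Oas1a, Gbp3, Rtp4, Ifi44 and Lgals3bp were also differentially expressed genes (DEGs) by the study's further conditions, a mean level of at least 100 and a fold change of at least 1.5, against 1.15% of all genes lower. No member was a DEG in the other direction, where 0.814% of all genes were.

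The rest of the pathway was read from lists of 136 further genes, of which 126 were measured. Of these 126 genes, 11 (8.73%) were called lower and 0 were called higher by limma, beside 2.33% and 1.65% of all genes. None of the 18 interferon genes, 10 receptor and JAK-STAT genes, 17 sensing and induction genes and 11 negative regulators was called in either direction, and the median log2 differences of these lists were -0.03, -0.02, -0.08 and -0.03. At unadjusted P below 0.05 by limma, these lists held 0, 2, 3 and 0 lower genes and 0, 0, 0 and 1 higher gene. Only 5 of the 18 interferon genes were well above background on all arrays. Ifnb1, the interferon that starts most type I responses, was well above background on 0 arrays, so its values (25.0 and 18.0 in young adult, 21.4 and 40.0 in aged mice) give no level. Ifnk, which encodes an epithelial interferon, was at 170.3 and 109 in young adult and at 166 and 187 in aged mice, with overlap.

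In the receptor list, Ifnar2, a chain of the type I receptor, was at 2291 and 2286 in young adult and at 1847 and 1889 in aged mice, without overlap (-0.29, FDR = 0.307 by limma), while its partner Ifnar1 differed by -0.02 with overlap. In the sensing list Ikbke, the gene of a kinase that activates the interferon regulatory factors, was at 167 and 106 in young adult and at 60.6 and 71.5 in aged mice. Its arrays did not overlap, but the young adult pair was wide apart and the difference was not called (-1.01, 95% interval -1.85 to -0.18, FDR = 0.323 by limma). Among the negative regulators Socs3, an inhibitor of cytokine receptors, was at 3888 and 3513 in young adult and at 5124.5 and 5247 in aged mice. Socs3 was higher on both aged arrays and just missed the threshold (0.49, 95% interval 0.21 to 0.77, FDR = 0.251 by limma).

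Of 48 further interferon-stimulated genes measured, 8 (16.7%, beside 2.33% of all genes) were called lower, and the median log2 difference was -0.13. Apol9b, an apolipoprotein L gene, was at 585 and 578 in young adult mice and at 274 and 288 in aged mice. This was the largest called difference among the members and the pathway lists (-1.05, SE 0.079, FDR = 0.178 by limma). Its near-identical copy Apol9a fell by 0.71, but probes may not tell such copies apart. The others were Sp100, a nuclear body protein gene (fell by 0.96), Phf11d (fell by 0.89), Oas1f of the OAS cluster (fell by 0.71), Ifit3b, the neighbour of Ifit3 (fell by 0.51), the membrane restriction factor gene Ifitm3 (fell by 0.41) and Slfn2, which restrains the activation of immune cells (fell by 0.41).

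Of 22 interferon-gamma responsive genes, 3 (13.6%, beside 2.33% of all genes) were called lower, and 18 (81.8%, beside 21.8%) had both aged arrays below both young adult arrays. Their median log2 difference of -0.29 was close to that of the members. The called genes were Iigp1 and Irgm2, immunity-related GTPases (fell by 0.58 and 0.45), and Irf8, a transcription factor of myeloid cells (fell by 0.49). In the other direction Gbp9 was at 52.8 and 52.0 in young adult and at 76.5 and 96.5 in aged mice, higher on both aged arrays and not called (0.71, 95% interval 0.27 to 1.16, FDR = 0.265 by limma).

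**Figure D4:**
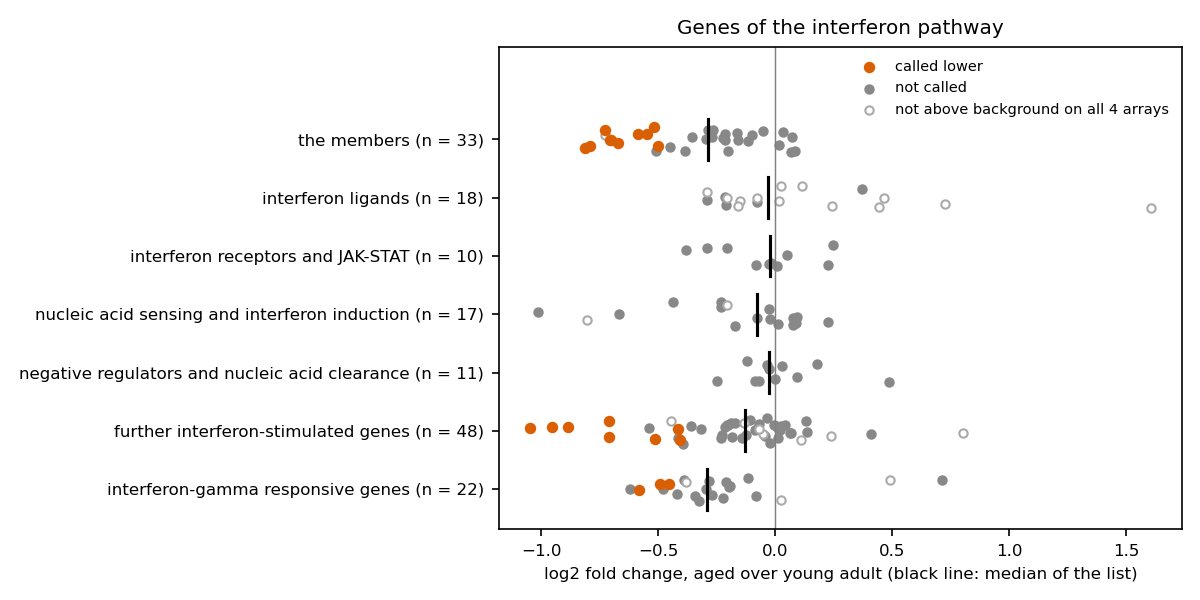
Log2 fold change, aged over young adult (horizontal axis), of each measured gene of the members and of 6 further lists of the interferon pathway (vertical axis, with the number measured). Orange points were called lower, grey points were not called, open points were not well above background on all 4 arrays (Oas3 among the members, although called, is drawn open), and black lines are list medians, which run from -0.29 for the members and the interferon-gamma responsive genes to -0.02 for the receptors.

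Some markers of 5 cell types of the mucosa were called lower in aged mice, in each list a larger share than the 2.33% of all genes, and in whole tissue fewer cells of a type and less RNA per cell cannot be told apart. All 10 macrophage markers differed by less than 0 and 4 were called lower (Cd68, Mrc1, C1qc and Aif1). Their summed normalized intensity was 12475 and 12950 in young adult and 9505 and 9525 in aged mice. Of 8 neutrophil and precursor markers measured, 4 were called lower (S100a8, S100a9, Ltf and Retnlg), with sums of 278580 and 267350 in young adult and 174670 and 165090 in aged mice. The Ltf probe decided that sum, and without it the sums were 12613 and 13282 in young adult and 6822 and 6843 in aged mice, with 3 of 7 called lower. Of 5 endothelial markers 2 were called lower (Kdr and Emcn), with sums of 4761 and 4793 against 3054 and 3252. Of 5 fibroblast markers 3 were called lower (Col1a1, Col1a2 and Lum), with sums of 234140 and 210020 against 120810 and 113000. Col1a1 and Col1a2 made up most of the fall in that sum. Pdgfra (log2 difference -0.29) and Dcn (-0.19, with overlap of the ages) were not called. Of 4 immature ORN markers 1 was called lower (Dpysl3), with sums of 41505 and 40138 against 33188 and 32460. Every measured marker of these 5 lists had a log2 difference below 0, beside 48.5% of all genes, and Ly6g had no matched probe.

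The remaining marker lists held no called gene. Of 6 markers of plasmacytoid dendritic cells, which make large amounts of type I interferon, 0 were called by limma, and their sums were 19520 and 20096 in young adult and 19515 and 21247 in aged mice. The Ly6d probe decided these sums, at 11359 and 11403 in young adult and 11687 and 12258 in aged mice. Siglech was at 1926 and 1936 in young adult and at 1256 and 1932 in aged mice, with overlap. Of the 6 markers 3 were below 0 and 3 above, so the sums do not show whether these cells changed. For the 6 markers of plasmacytoid dendritic cells, 9 of T and natural killer cells and 5 of B and plasma cells, 0 were at unadjusted P below 0.05. All 8 mature ORN markers had a log2 difference above 0, with sums of 439610 and 429590 against 473390 and 482160, and 0 were called. For all 8 both aged arrays lay above both young adult arrays, as they did for 24.2% of all genes. Only 1 of the 8, Adcy3, was higher at unadjusted P below 0.05 by limma, beside 6.05% of all genes. Of 4 sustentacular and 4 ciliated cell markers 0 were called, with 0 and 1 at unadjusted P below 0.05. The part of the macrophage, neutrophil, endothelial, fibroblast and immature ORN markers in the lower level of the interferon-stimulated genes was not tested.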

How the data were processed

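Septal nasal mucosa RNA was measured on 4 Agilent one-color arrays, each a pool of 5 mice. The authors deposited, per array, the median intensity of each spot and of its local background, with flags from Feature Extraction 11.0.1.1 and no normalization between arrays. The deposited value table equalled the scanner's processed intensity for all 62976 spots of each array and was used only in alternatives. Per-spot mean intensity was not used here, so the median intensity replaced it.

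The normexp method of limma 3.58.1 (R 4.3.3), with an offset of 0, served for background correction. Control spots and 88 to 118 outlier spots per array were left out, spots of a probe were averaged, log2 values were quantile normalized, and each gene took the mean log2 value of its probes. Genes were named by matching accessions to RefSeq (GRCm38.p6), which matched 32994 of 56605 probes (58.3%). The other probes were kept under the array's own name for their target and counted among the genes tested. Ages were compared with lmFit and eBayes over 45604 genes without covariates. A normalized intensity is a level. Levels of different probes depend on the probe and were only summed over marker lists or used to choose the brightest gene or probe to describe. Of non-control spots, 63.1 to 76.8% were well above background, no spot was saturated, and correlations between arrays were 0.987 within each age and 0.982 to 0.989 between ages. The fit was tested on simulated data. The number of arrays limits the precision.

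The members and lists were chosen with earlier results of these data known, so no list was tested as a set. Named genes were every called member, the 5 largest differences in each direction, the brightest member of each role group, the called genes of the other lists (10 at most) and the largest difference in each list. Other genes given with array values were picked after seeing them. A gene of the receptor list that the rule names is not reported here. Alternatives were offsets of 16 and 50, uncorrected signal, the processed intensity, scaling to the 75th percentile, cyclic loess, outlier spots kept, dim probes left out, other probe summaries, an intensity trend, an FDR of 0.05, the replicate number as a block, the shared slide alone and each array left out.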

Additional observations from a re-analysis of the deposited data

How the results depend on the processing

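All 11 called members were lower in aged mice in 197 of 197 values over the alternatives, and 0 members were called higher in any of them. The alternatives reused the arrays on which these 11 were picked, so this tally describes the processing and is not separate support. It includes Oas3, whose probe was not well above background on any array. The count of 11 members called lower rose to 20 of 32 when dim probes were left out, where 12.4% of all genes were called lower and 12.1% higher; 10 of the 11 were among them, and Oas3 was not tested. With an offset of 50 it was 15, against 5.43% of all genes. It was 8 with scaling to the 75th percentile, 9 with the processed signal so scaled and 10 with cyclic loess, where 9, 9 and 14 other pathway genes and 1410, 1506 and 2333 genes in all were called. At an FDR of 0.05 by limma, 0 members, 0 other pathway genes and 0 genes in all were called, against 11, 11 and 1817. For the other pathway genes and for all genes, the counts were 19 and 2989 with an offset of 16, 28 and 4582 with an offset of 50, 25 and 4027 without background correction, 28 and 4372 with the processed signal after quantile normalization, 44 and 7249 without dim probes, 20 and 2733 with linear averages, and 39 and 7130 with an intensity trend. The members' median log2 difference of -0.29 moved to -0.26 with an offset of 50, and to -0.39 and -0.44 with the processed signal scaled to the 75th percentile and quantile normalized. Ifit3 lost its call with both scalings to the 75th percentile, Ifi44 with that of the median signal, and Oas3 in 6 alternatives.

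The deviations of arrays with the same replicate number correlated at r = -0.078 over genes and 0.127 over the members, and no label ties the numbers to shared mice or batches, so they were not taken to pair the samples. With the replicate block, 0 members, 0 other pathway genes and 0 genes were called, with a smallest FDR of 0.433 by limma and 12 members lower at unadjusted P below 0.05 (6.48% of all genes). The slide as a random block could not be fitted. With each array left out in turn, the lone array of an age being assumed to vary like the other age, the counts of members, other pathway genes and all genes called were 0 to 0, and the members' median was -0.32 to -0.27.

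The sign changed for 4 uncalled members. Parp9 was at -0.020 with an offset of 50, -0.046 without background correction, -0.19 and -0.44 with the processed signal scaled and quantile normalized, -0.17 without dim probes, -0.17 with the most intense probe, -0.16 with linear averages and -0.099 to 0.24 with an array left out. Dtx3l was at -0.014 and -0.015 with the processed signal scaled and quantile normalized and -0.0083 to 0.043 with an array left out. Cmpk2 was at -0.0048 with the quantile normalized processed signal and -0.023 to 0.092 with an array left out. Parp14 was at -0.030 with the most intense probe, -0.0055 with linear averages and -0.034 to 0.20 with an array left out. Beyond the probes described, the cause was not tested. The number of arrays, and for Oas3 and the dim probes the signal over background, limits what can be read.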
